A study of Mus musculus with 58 samples.

Results

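The brain response to controlled cortical impact was examined in E3/Abca1+/- mice alone, 13 of the 58 mice of the study, chosen by their genotype and treatment labels. These mice are homozygous for human APOE3, which replaces the mouse Apoe gene, and carry 1 functional copy of Abca1 on a C57BL/6 background, in the sham group as in the injured group. At 3 months of age 6 mice (3 male, 3 female) received traumatic brain injury (TBI): a craniotomy of 4.5 mm over the left parietal cortex and a single impact of a 3.0 mm tip to a depth of 1.0 mm, at 3 m/s with a dwell time of 100 ms. The 7 sham mice (4 male, 3 female) had the anesthesia and the craniotomy without the impact, so the comparison shows what the impact added to the opening of the skull. Tissue was taken 14 days later, after perfusion, from a coronal section of 1.5 mm that held the injury site. Cortex and hippocampus of each mouse were frozen together and sequenced as 1 library, so the regions cannot be told apart.

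ABCA1 is the transporter that moves cholesterol and phospholipid out of cells onto apolipoproteins such as APOE, which in the brain is made mainly by astrocytes and, after injury, also by microglia. Microglia, the resident phagocytes, and astrocytes both change state after a contusion: they clear debris, release complement and cytokines, and wall off the lesion. Messenger RNA of bulk tissue shows these states as a sum over all cells, and more cells of a type cannot be told apart from more RNA per cell, nor fewer cells from less RNA.

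Expression is given throughout as CPM, counts scaled to a common library size, in single mice, as the lowest, median and highest value of the 6 TBI and 7 sham libraries, and changes as log2 fold change of TBI over sham with its standard error (SE). Libraries held between 12165681 and 28184924 counts. The edgeR quasi-likelihood test was run over 15026 genes, with Benjamini-Hochberg adjusted p under 0.05 as the threshold for calling a gene higher or lower. The labelled sex matched Xist and Ddx3y in 13 of 13 libraries. Actb, a housekeeping gene, had a log2 fold change of 0.04, and the Gapdh row held only 0.91 to 2.65 CPM, so it gives no check of loading. Some libraries stood apart. Sham replicate 2 held cerebellar genes, with Cbln3 at 82.6 CPM against at most 1.10 in the other 12 mice. Ttr, a choroid plexus gene, was at 609 to 1737 CPM in TBI replicate 3 and sham replicates 2, 4 and 7 and at most 11.4 elsewhere. The ribosomal RNA gene Rn45s was at 54368 CPM in TBI replicate 3, at 20751 to 28140 in TBI replicates 4, 5 and 6 and sham replicates 6 and 7, and at 984 to 4993 in the others. The part of these contents in the results below was not tested beyond the fits without them, which are given where they matter.

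The impact raised far more RNA species by large amounts than it lowered. In all, 2007 genes (13.4% of those tested) were higher and 1508 (10%) lower in TBI mice, so 57.1% of the 3515 called genes were higher. The median log2 fold change was 0.50 among the higher genes and -0.23 among the lower ones. Log2 fold changes of 1 or more were reached by 459 of the higher genes and of 3 or more by 54, while 27 of the lower genes reached a size of 1. The only lower gene past a size of 2 was Cbln3, which rested on sham replicate 2. Every TBI mouse lay above every sham mouse for 972 genes (6.47% of those tested) and below every sham mouse for 499 genes (3.32%). Genes that rose were less abundant in sham tissue, at a median of 10.3 CPM, than genes that fell, at 90.9 CPM, while the median of all genes was 22 CPM. Without the 4 libraries high in Ttr, over 9 mice, the counts were 1530 higher and 872 lower. Of the 171 called genes named here 22 then missed the threshold, at edgeR adjusted p of 0.052 to 0.948: Abcg1, Anpep, Bdnf, Cbln3, Cdkn1a, Col1a1, Cox6a2, Fxyd5, Grik5, Hapln4, Il1b, Lox, Ncan, Nptx2, Npy, Nr1h2, Olig2, Pramef8, Slc1a2, Tagln, Tcf7l2 and Tnc. With the Rn45s share as a covariate the counts were 1702 higher and 1236 lower, and 12 of the 171 genes missed the threshold. With Rn45s left out of the totals the counts were 1902 and 1717, and 5 of the 171 missed it.

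**Figure D1:**
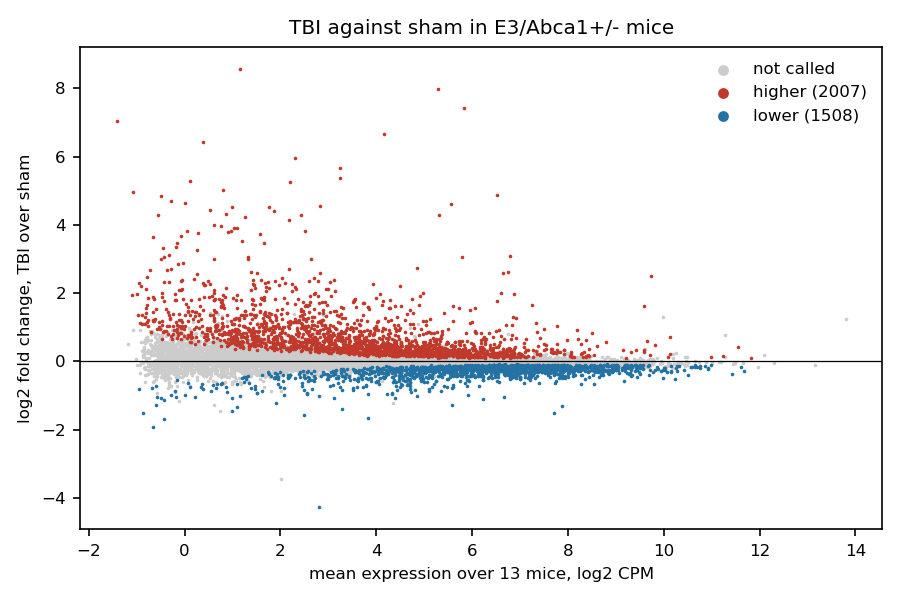
Log2 fold change of TBI over sham (vertical axis) against mean expression in log2 CPM (horizontal axis) for the 15026 genes tested in E3/Abca1+/- mice, with higher genes in red, lower genes in blue and the others in grey. The 2007 higher genes spread up to a log2 fold change of 8.57, while lower genes lie in a narrow band below 0.

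Genes of microglia and phagocytes rose in most tested members of each such list but 1. The exception was border and infiltrating macrophages, with 5 of 10 tested higher. These lists share members and, like the others below, were chosen with earlier results of these data known. Their counts describe the members and are no independent evidence. All 20 tested genes of the disease-associated microglia list rose, with a median log2 fold change of 1.87, beside a median of 0.01 over all genes, and for 19 of them no TBI mouse overlapped a sham mouse. Clec7a, a receptor for beta-glucans that marks this state, was at 12.2 to 28.6 CPM in TBI mice (median 20.3) and at 0.149 to 1.01 in sham mice (median 0.305). The groups were separate, at a log2 fold change of 5.66 ± 0.28 (SE, edgeR adjusted p = 3.56e-09). Itgax, the integrin CD11c, was at 8.995 to 13.005 CPM after TBI (median 10.6) against 0.355 to 1.35 (median 0.446), a change of 4.28 ± 0.22. Cst7, which encodes a cathepsin inhibitor, was at 4.20 to 15.6 CPM (median 9.08) against 0.106 to 0.729 (median 0.166), a change of 5.26 ± 0.38. Gpnmb, a glycoprotein of lipid-laden phagocytes, ranged widely among injured mice, from 33.5 to 176 CPM (median 88.5), and stayed at 2.30 to 5.64 in sham mice (4.62 ± 0.40). The 3 females held the 3 highest Gpnmb values of the TBI group, 121 to 176 CPM, and the males 33.5 to 56.3. The test of the difference between the sexes, given below, did not call Gpnmb. Smaller changes were seen for Trem2, the lipid-sensing receptor, at 34.2 to 57.4 CPM (median 41.6) against 10.6 to 15.6 (median 11.9, 1.82 ± 0.13), and for Lpl, lipoprotein lipase, whose groups overlapped at 30.3 to 60.5 against 17.5 to 30.5 CPM (0.83 ± 0.16).

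Markers of resting microglia rose too, though less. Of 14 tested, 13 were higher and 0 lower, with a median log2 fold change of 0.68. Wherever a list below is given with no member called in a direction by edgeR, none was called there by DESeq2, when 1 library was left out, or at an unadjusted p under 0.05 either, unless stated. The purinergic receptor P2ry12 was at 42.9 to 53.5 CPM (median 47.5) in TBI mice and at 34.3 to 39.0 (median 36.6) in sham mice, a change of 0.37 ± 0.06. Tmem119, a microglial membrane protein, was at 33.6 to 46.8 CPM against 24.5 to 31.6 (0.47 ± 0.08), and the transcription factor Sall1 at 32.4 to 40.1 against 24.5 to 28.3 (0.44 ± 0.05). In each of these the groups did not overlap. Slc2a5, a fructose transporter, did not pass the test (0.15).

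The lysosome list, which shares members such as Ctsd with the microglial lists, had 30 of 36 members higher and none lower, with a median of 0.65 and 28 members without overlap. Ctss, cathepsin S, was at 205 to 273 CPM (median 246) against 63.4 to 93.8 (median 76.6), a change of 1.66 ± 0.09 (edgeR adjusted p = 7.16e-09). Ctsd, the aspartic protease cathepsin D, rose from a median of 400 CPM (373 to 422) to 1198 (784 to 1607), a change of 1.61 ± 0.13. Slc11a1, a phagosomal metal transporter, had the largest change of the list at 2.44. Atp6v0d2, a subunit of the proton pump known from osteoclasts and macrophages, was counted 286 times in the TBI libraries and 4 times in the sham libraries. Its ratio of summed CPM was 102, with a 95% counting interval of 39.5 to 378. All 6 subunits of the phagocyte NADPH oxidase, which makes superoxide, rose, with log2 fold changes of 1.201 to 4.14. Cybb, its catalytic chain, was at 3.10 to 15.05 CPM (median 9.29) against 0.168 to 0.744 (median 0.494, 4.14 ± 0.33).

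Complement genes rose, some of them among the largest changes in the data. Of 21 tested, 16 rose, 5 did not pass and 0 fell, with a median log2 fold change of 1.65. C3, the protein on which the complement pathways converge, was at 47.0 to 204 CPM (median 122) in TBI mice and at 0.305 to 1.59 (median 0.567) in sham mice. That is a change of 7.42 ± 0.41, with no overlap. C4b, whose reads can be shared with its near-identical neighbor C4a, had the smallest p-value of all genes. It was at 175 to 223 CPM (median 195) against 25.3 to 41.0 (median 31.8), a change of 2.61 ± 0.09 (edgeR adjusted p = 2.43e-11). C1qa, a chain of the recognition molecule of the classical pathway, was at 159 to 258 CPM against 37.4 to 57.9 (1.96 ± 0.13). The receptor C3ar1 rose from 1.30 to 2.71 CPM in sham to 9.30 to 15.2 after TBI (2.58 ± 0.16). Serping1, the C1 inhibitor, also rose (1.66 ± 0.23), but TBI replicate 1 at 11.3 CPM fell within the sham range of 4.94 to 11.4. Of the alternative pathway, Cfb rose by only 0.45 ± 0.11, and properdin (Cfp, 0.13) did not pass. C2 missed the threshold at 0.65 ± 0.24 (edgeR adjusted p = 0.0612).

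Receptors that sense antibody and microbial patterns followed the same direction. All 7 genes of the Fc gamma receptor list rose, with a median of 1.72, and the largest change was that of the activating receptor Fcgr4, at 1.45 to 3.11 CPM against 0.0743 to 0.221 (3.81 ± 0.28). Fcgr2b, the inhibitory receptor, was at 10.7 to 17.6 CPM against 2.02 to 3.48 (2.33 ± 0.15). Of 18 Toll-like receptors and adaptors 15 rose, with a median of 0.99. Tlr2, which senses lipoproteins, was at 8.00 to 15.5 CPM (median 11.4) against 0.993 to 2.19 (median 1.49, 2.99 ± 0.19). Its partner Tlr1 changed by 2.43, and Tlr4, the endotoxin receptor, by 1.11 ± 0.15. The adaptors Tirap, Ticam1 and Traf6 did not pass. Of 12 inflammasome and cytokine genes 10 rose. Il1b, a cytokine precursor, was low and variable at 0.534 to 3.33 CPM against 0.166 to 0.827 (1.97 ± 0.49), and the groups overlapped. Casp1, the protease that matures it, missed the threshold (0.58 ± 0.23, edgeR adjusted p = 0.0825), while Casp4 (2.13) and the pore-forming Gsdmd (1.38) rose.

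Chemokines rose from very low levels. Of 26 chemokine and receptor genes listed 18 could be tested, and 14 were higher, with a median log2 fold change of 2.07. Members near 0 in sham mice passed the count filter only through the TBI mice, and members low in both groups dropped out. The share and the median therefore lean upward. Cxcl10, an interferon-induced chemokine, was at 3.30 to 12.9 CPM (median 6.59) against 0.0871 to 0.673 (median 0.223, 4.53 ± 0.41). Ccl3, a macrophage inflammatory protein, was at 1.55 to 3.07 CPM against 0.0743 to 0.276 (3.78 ± 0.26). Cxcl1, a neutrophil chemoattractant, was counted 163 times after TBI and 7 times in sham, a ratio of 33.3 (15.8 to 84.2). The one member called lower (2 were without TBI replicate 6 or sham replicate 3 or 5) was Cx3cl1, the neuronal ligand of the microglial receptor CX3CR1, at 648 to 802 CPM (median 700) against 830 to 984 (median 946, -0.39 ± 0.05). Its receptor gene Cx3cr1 rose by 0.84.

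Markers of blood-borne and border cells were low, and only part of them rose. Of 14 border and infiltrating macrophage genes listed 10 could be tested, and 5 were higher (8 without TBI replicate 1). Cd5l, a secreted macrophage protein, had the largest log2 fold change of all called genes at 8.57 ± 0.75. It was at 1.25 to 9.28 CPM in TBI mice and was counted once in all sham libraries, so the ratio of 740 has a counting interval of 132 to 29300. Lgals3, galectin-3, was at 7.30 to 23.1 CPM (median 14.1) against 0.149 to 1.06 (median 0.638, 4.57 ± 0.37), Ms4a7 changed by 3.96, and the monocyte chemokine receptor Ccr2 was at 0.800 to 3.15 CPM against 0 to 0.607 (2.36 ± 0.42). The border macrophage genes Cd163, Lyve1 and Pf4 did not pass, with changes of 0.50, 0.04 and 0.56. Only 2 of the neutrophil markers could be tested. Without sham replicate 2 only 1 of them met the count filter, and it was called. Csf3r rose by 1.76 ± 0.16, and S100a9, the subunit of calprotectin, was at 0.450 to 9.78 CPM against 0.152 to 0.600 (3.01 ± 0.66), with TBI replicate 6 the highest. Of 19 lymphocyte genes listed only 6 could be tested, and 1 was higher and 1 lower (16.7% each, beside 13.4% and 10% of all genes). The higher one was the joining chain Jchain, at 1.05 to 12.1 CPM against 0.247 to 0.729 (3.54 ± 0.54). Igha, the alpha heavy chain of immunoglobulin A, which is not in that list, was at 2.95 to 54.5 CPM (median 14.5) against 0.0435 to 1.21 (5.38 ± 0.69). TBI replicate 4 was the highest in both. The mu heavy chain Ighm (-0.22) and Cd4 (-0.23) did not pass, and Trbc2, a T-cell receptor constant region, fell from 1.37 to 3.92 CPM to 0.554 to 1.46 (-1.46 ± 0.26). Neither red blood cell gene passed in either direction, also at an unadjusted p under 0.05 or in DESeq2.

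**Figure D2:**
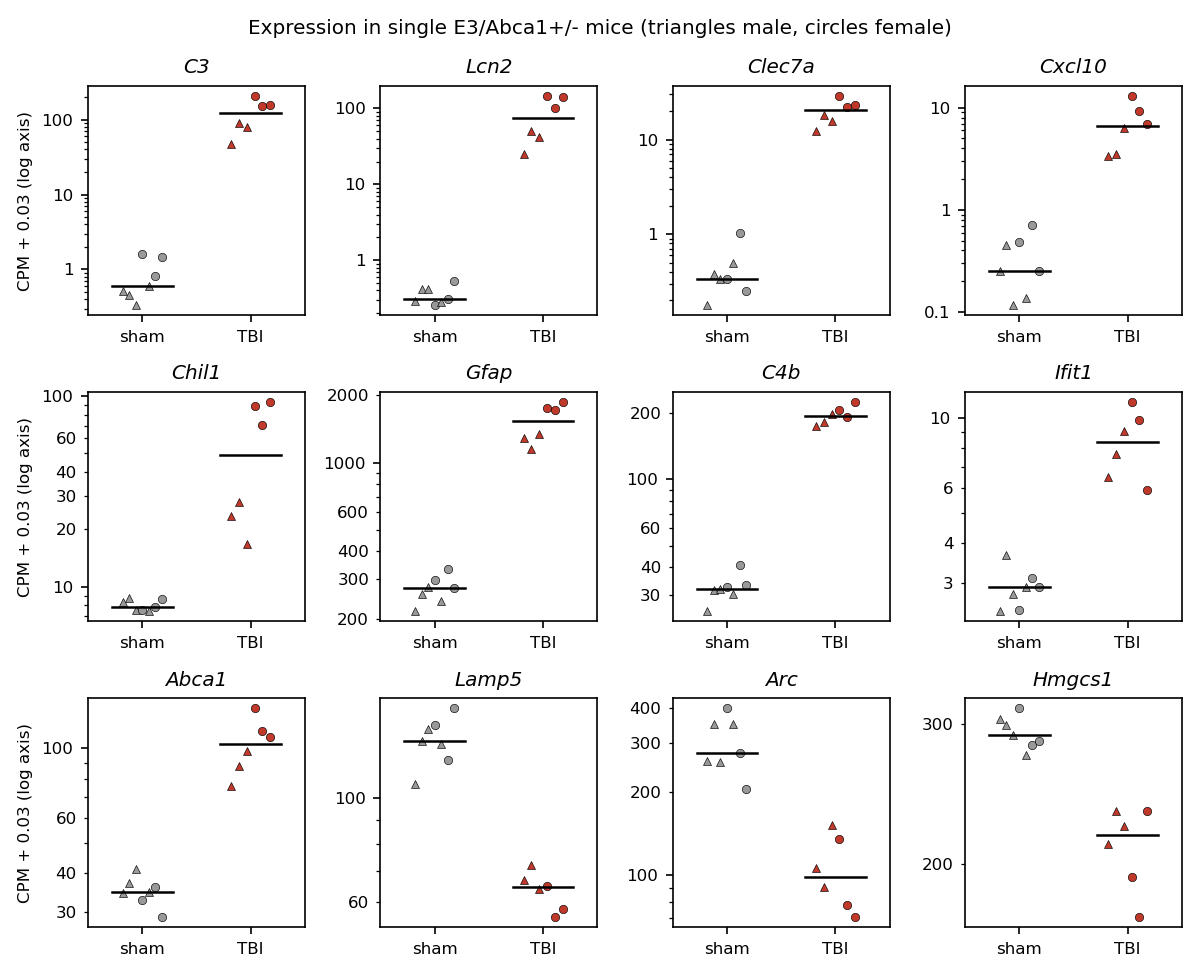
Expression in each mouse, in CPM on a log axis with 0.03 CPM added for display, for 12 genes in 7 sham mice (grey) and 6 TBI mice (red), males as triangles and females as circles, with a bar at the group median. In C3, Lcn2, Clec7a, Cxcl10, Chil1, Gfap, C4b and Ifit1 the groups are separate with TBI higher, in Abca1 likewise, and in Lamp5, Arc and Hmgcs1 every TBI mouse lies below every sham mouse.

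Interferon-stimulated genes and antigen presentation rose. Interferons induce these genes through factors that include STAT2 and IRF9, which bind the interferon-stimulated response element (ISRE). All 36 tested members of the list were higher, 34 without overlap, at a median log2 fold change of 1.41. An ISRE core, searched as GAAA, any 2 bases and GAAA again on both strands from 250 bases before to 50 bases after the transcription start in RefSeq promoters of GRCm38.p6, was found in 16 of the 26 members with a promoter in the table (61.5%). It was found in 411 of all 11644 matched genes (3.53%), in 103 of 1573 higher genes (6.55%) and in 39 of 1169 lower genes (3.34%). A match of letters is not evidence of binding. The promoters of 5 of the members are printed below as the 150 bases before the start, 5′ to 3′ in the direction of the gene, because they show the element, in capitals, at different distances from the start. Overlapping matches run together in Isg15 and Gbp3. Positions are chr19:34640739-34640888 on the plus strand for Ifit1, chr4:156200819-156200968 on the minus strand for Isg15, chr3:142620513-142620662 on the plus strand for Gbp2, chr3:142559894-142560043 on the plus strand for Gbp3 and chr12:26456453-26456602 on the minus strand for Rsad2.
Ifit1: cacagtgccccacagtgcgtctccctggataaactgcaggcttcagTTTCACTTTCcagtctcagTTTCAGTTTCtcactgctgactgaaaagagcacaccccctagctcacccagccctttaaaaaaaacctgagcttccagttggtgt
Isg15: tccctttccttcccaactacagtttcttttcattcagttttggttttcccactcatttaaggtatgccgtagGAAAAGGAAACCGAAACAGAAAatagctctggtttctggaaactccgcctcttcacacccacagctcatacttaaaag
Gbp2: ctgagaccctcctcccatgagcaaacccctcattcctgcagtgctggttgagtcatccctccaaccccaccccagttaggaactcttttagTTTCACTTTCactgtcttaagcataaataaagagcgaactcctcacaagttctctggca
Gbp3: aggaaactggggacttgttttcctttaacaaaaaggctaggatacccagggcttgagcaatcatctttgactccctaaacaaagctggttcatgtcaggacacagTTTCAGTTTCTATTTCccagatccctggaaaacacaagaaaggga
Rsad2: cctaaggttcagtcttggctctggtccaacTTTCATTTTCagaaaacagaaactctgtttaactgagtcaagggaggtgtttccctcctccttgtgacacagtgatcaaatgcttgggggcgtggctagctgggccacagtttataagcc

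The elements lie 104 and 85 bases before the start in Ifit1, 59 in Gbp2 and 120 in Rsad2, counted at their first base. Ifit1, which binds foreign RNA, was at 5.89 to 11.2 CPM (median 8.34) against 2.41 to 3.63 (median 2.87), a change of 1.53 ± 0.15. Isg15, a ubiquitin-like protein, was at 3.58 to 4.52 CPM against 1.07 to 2.50 (1.29 ± 0.16). Gbp3, a guanylate-binding protein, was the tightest of the group, at 10.2 to 11.2 CPM against 3.42 to 4.42 (1.42 ± 0.08, edgeR adjusted p = 6.24e-09), and Gbp2 was at 11.2 to 19.0 against 2.79 to 5.24 (2.07 ± 0.16). Rsad2, viperin, was at 2.60 to 8.98 CPM against 0.884 to 1.91 (1.39 ± 0.30), with TBI replicate 4 far above the other injured mice. Of the factors, Irf9 changed by 0.69 and Stat2 by 0.26, while Irf7 changed by 1.71 ± 0.15. The largest change was that of Zbp1, a sensor of left-handed nucleic acid, at 0.600 to 1.86 CPM against 0 to 0.318 (3.32 ± 0.40).

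Of 20 genes of MHC class I presentation 18 rose, with a median of 0.95. B2m, the common light chain, was at 154 to 191 CPM (median 184) against 65.2 to 81.0 (median 73.9, 1.28 ± 0.06, edgeR adjusted p = 3.47e-09), and the heavy chain H2-K1 at 62.0 to 97.3 against 21.7 to 29.3 (1.64 ± 0.10). Reads of class I heavy chains can be shared within the family, so single members are uncertain. The immunoproteasome subunit Psmb8 changed by 1.65 ± 0.14 and the peptide transporter Tap1 by 1.13 ± 0.15. For MHC class II, 9 of 10 rose. The invariant chain Cd74 was at 14.1 to 40.4 CPM (median 28.3) against 3.08 to 7.44 (median 5.99, 2.26 ± 0.26), and H2-Aa at 6.30 to 18.3 against 1.44 to 3.18 (2.35 ± 0.26). Their activator Ciita did not pass (0.26). TBI replicates 1 and 2 were the lowest injured mice for both genes.

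Astrocyte genes of the reactive state rose strongly, while those of normal astrocyte function changed little. Of 17 reactive astrocyte genes 15 were higher, 14 without overlap, at a median of 1.84. Gfap, the intermediate filament of astrocytes, was at 1156 to 1861 CPM (median 1529) against 216 to 333 (median 274), a change of 2.49 ± 0.12 (edgeR adjusted p = 3.47e-09). Vim, vimentin, was at 135 to 220 CPM against 24.2 to 36.6 (2.60 ± 0.13). Lcn2, lipocalin-2, which binds iron-carrying siderophores, was at 25.4 to 144 CPM (median 75.9) against 0.228 to 0.497 (median 0.280, 7.98 ± 0.53). Steap4, a metalloreductase, was at 15.9 to 76.3 CPM against 0.228 to 0.617 (6.66 ± 0.44). In Vim, Lcn2 and Steap4 the 3 TBI females were the 3 highest mice. The test of the difference between the sexes called none of the 3 (edgeR adjusted p of 0.561, 0.712 and 0.648). Serpina3n, a secreted protease inhibitor, was at 114 to 306 CPM against 19.2 to 32.5 (3.09 ± 0.22). Stat3, the factor downstream of IL-6 family cytokines, rose by 0.45 ± 0.05 and their receptor Osmr by 1.79 ± 0.15.

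The STAT element TTCCNGGAA, searched in the same windows on both strands, was found in 2 of the 17 reactive astrocyte promoters, those of Gfap and Steap4, in 2.03% of higher genes and in 1.48% of all. It was also found in 3 of 26 interferon-stimulated promoters (11.5%, against 11.8% for the astrocyte list). That of Steap4 is shown, with the element in capitals 116 bases before the start, because Steap4 had one of the largest changes of the data (chr5:7960322-7960471 on the plus strand).
Steap4: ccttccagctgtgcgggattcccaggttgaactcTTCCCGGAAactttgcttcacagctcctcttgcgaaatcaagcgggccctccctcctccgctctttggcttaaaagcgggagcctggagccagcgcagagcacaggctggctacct

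Both named sets of reactive astrocyte genes, A1 and A2, were partly higher, with 10 of 12 and 6 of 10. Of the A2 set, Tgm1, a transglutaminase, was at 5.15 to 16.1 CPM against 0.0355 to 0.282 (5.97 ± 0.37) and the pentraxin Ptx3 at 1.45 to 7.33 against 0.106 to 0.496 (3.82 ± 0.40), while Sphk1 (-0.04) and S100a10 (0.27) did not pass. Among 16 genes of normal astrocyte function 8 rose, with a median of 0.20. The water channel Aqp4 changed most, at 240 to 391.8 CPM against 133 to 174 (1.04 ± 0.10). The glutamate transporter Slc1a3 rose by 0.48 ± 0.08 and the gap junction protein Gja1 by 0.52 ± 0.06. Slc1a2, the other glutamate transporter, was at 3495 to 4109 CPM against 3304 to 3694, and its change of 0.11 ± 0.04 was near the threshold (edgeR adjusted p = 0.045). It lost the call when any 1 of 10 libraries was left out (changes of 0.08 to 0.12, edgeR adjusted p of 0.0507 to 0.0985), all but TBI replicate 3 and sham replicates 1 and 2. Aldh1l1 (0.16 ± 0.07), a marker used to count astrocytes, did not pass.

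Matrix, vessel and scar genes rose in part. Of 20 metalloproteinase and inhibitor genes 12 were higher and 1 lower. Without the 4 libraries high in Ttr these counts were 7 and 0, and the lower call was also lost without TBI replicate 1, 3, 4 or 5 or sham replicate 4, 5 or 7. Mmp12, macrophage elastase, was at 1.15 to 4.0015 CPM against 0 to 0.142, with 245 counts against 8 and a ratio of 43.8 (21.9 to 103), and the inhibitor Timp1 was at 2.46 to 10.9 CPM against 0.387 to 0.759 (3.46 ± 0.37). Among 28 collagens and other scar proteins 12 rose, at a median of 0.42. The 2 free of overlap are a share near that of all genes (6.47%). Col1a1 ranged from 11.7 to 39.9 CPM in TBI mice and from 7.72 to 21.98 in sham mice (0.83 ± 0.25). It missed the threshold without TBI replicate 3 (0.72) or TBI replicate 5 (0.65). The crosslinking enzyme Lox changed by 1.61. P4ha3, a subunit of collagen prolyl hydroxylase, was in contrast tight, at 9.81 to 14.3 CPM against 3.27 to 4.02 (1.73 ± 0.10). Chondroitin sulfate proteoglycans and perineuronal net genes went both ways: Cd44 (1.84 ± 0.17) and tenascin-C (Tnc, 0.42 ± 0.15) were higher, neurocan (Ncan, -0.16 ± 0.04) and the net link protein Hapln4 (-0.38) lower, and aggrecan (Acan) did not pass at -0.41 ± 0.17. Of the 14 genes of this list 3 were higher and 2 lower (21.4% and 14.3%, beside 13.4% and 10% of all genes), or 1 and 0 without the 4 libraries high in Ttr. Tnc lost its call when any library but sham replicate 1 or 2 was left out (changes of 0.36 to 0.45, edgeR adjusted p of 0.0513 to 0.0947). Of 16 annexin and S100 genes 11 rose, led by the calcium-binding proteins S100a4, at 4.85 to 6.23 CPM against 0.841 to 1.55 (2.18 ± 0.14), and S100a6, at 27.7 to 37.6 against 9.04 to 12.2 (1.63 ± 0.09).

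In the vessel wall, 5 of 19 endothelial genes rose (26.3%, beside 13.4% of all genes), or 3 without TBI replicate 3. The adhesion molecules that leukocytes bind changed most: Icam1 was at 6.85 to 15.4 CPM against 2.45 to 3.25 (1.99 ± 0.18) and Vcam1 at 48.5 to 69.0 against 29.1 to 35.1 (0.94 ± 0.08). Both are also made by glia and leukocytes. The endothelial identity genes Pecam1 (0.09 ± 0.09), Cldn5 (0.26 ± 0.13) and Cdh5 (0.12) did not pass. Of 8 mural genes only Anpep (0.88) and Tagln (0.62) rose (25%, beside 13.4% of all genes). Tagln lost its call when any 1 of 9 libraries was left out (0.54 to 0.62, edgeR adjusted p of 0.0549 to 0.0838), all but TBI replicates 1 and 4 and sham replicates 2 and 5. Of 10 genes of meningeal fibroblasts 2 rose (20%, beside 13.4% of all genes), 6 without TBI replicate 1 and 0 without the 4 libraries high in Ttr. TGF-beta signaling showed Tgfb1 at 7.004 to 12.7 CPM against 3.34 to 5.36 (1.03 ± 0.16), with both receptor chains, Tgfbr1 (0.58 ± 0.08) and Tgfbr2 (0.79 ± 0.08), higher. At an unadjusted p under 0.05, 1 of the 14 genes of this list was lower. Of 14 myelin genes 2 rose, Trf (0.66) and Cldn11 (0.30), a share of 14.3%, near the 13.4% of all genes. Mbp (0.22 ± 0.09) did not pass, and 1 member was lower at an unadjusted p under 0.05 and by the threshold without sham replicate 1. Myelin members called higher numbered 1 to 6 over fits that left out 1 library, with 5 without TBI replicate 4, 6 without sham replicate 4, and 1 without TBI replicate 2, 3 or 5 or sham replicate 2, 3, 5 or 6. Cldn11 lost its call in the last 7 of these and without TBI replicate 6 (0.25 to 0.32). Of 10 precursor genes Olig2 (0.27) and Enpp6 (0.56) rose, a share of 20% beside 13.4% of all genes. Olig2 kept its call only without TBI replicate 1 or 4 or sham replicate 3 or 7 (0.21 to 0.28 in the other 9 such fits, edgeR adjusted p of 0.0549 to 0.1159), and without TBI replicate 1 the list had 4 genes higher. Among 22 cell cycle genes 6 were higher, including Top2a, at 2.20 to 4.06 CPM against 1.17 to 1.60 (1.22 ± 0.15), Cdk1 (1.84 ± 0.31) and Mki67 (0.78 ± 0.16), whereas Pcna (0.03) and the cyclin Ccnd1 (0.24 ± 0.11) did not pass.

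**Figure D3:**
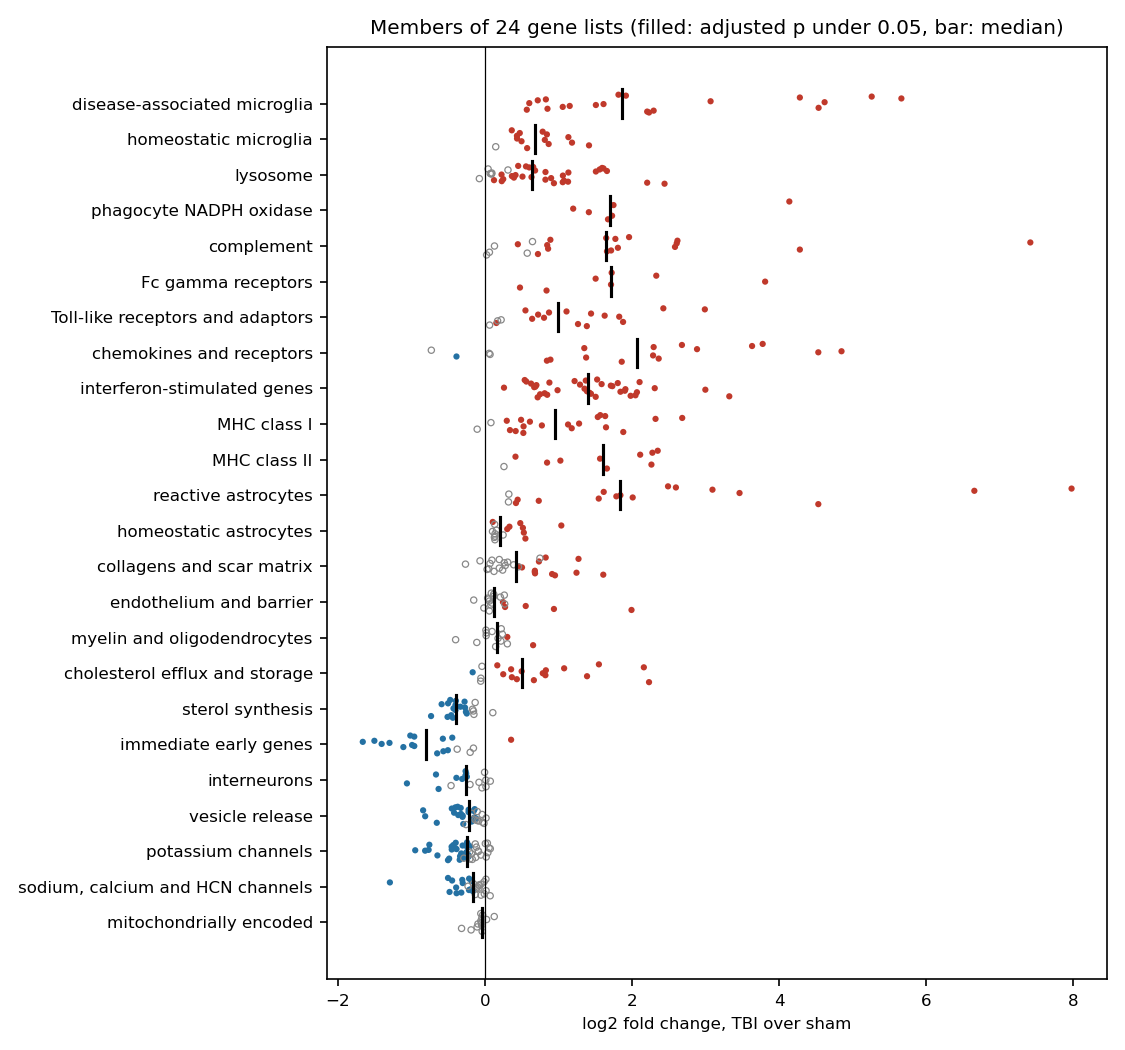
Log2 fold change of TBI over sham for every tested member of 24 gene lists (points, filled where edgeR adjusted p is under 0.05), with a bar at the list median. Microglial, complement, interferon and reactive astrocyte lists lie to the right of 0, immediate early genes, ion channels, vesicle release and sterol synthesis to the left, and mitochondrially encoded genes around 0.

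Genes that neurons switch on with activity were lower 14 days after injury. Immediate early genes are transcribed within minutes of synaptic input and encode factors and synaptic proteins that adjust the cell. Of 18 tested, 14 fell and 1, Jun (0.36 ± 0.07), rose, with a median log2 fold change of -0.80. Arc, a synaptic capsid-like protein, was at 70.8 to 152 CPM (median 98.5) against 204 to 398 (median 275), with no overlap (-1.50 ± 0.19, edgeR adjusted p = 2.02e-05). Egr1 was at 92.5 to 186 CPM against 230 to 464 (-1.30 ± 0.19). Npas4, a factor specific to neuronal calcium signals, was at 2.67 to 15.9 CPM against 12.6 to 34.0 (-1.66 ± 0.37), and TBI replicate 4 at 15.9 lay among the sham mice. Fos was at 11.7 to 29.2 CPM against 24.98 to 50.8 (-1.01 ± 0.23), Egr2 at 2.88 to 7.74 against 7.18 to 24.96 (-1.40 ± 0.29) and Nr4a1 at 34.2 to 59.1 against 56.4 to 124 (-1.11 ± 0.17), each with overlap. Of 13 later activity genes 7 fell, 11 without TBI replicate 2 and 2 without the 4 libraries high in Ttr. The neuropeptide precursor Vgf was at 147 to 183 CPM against 199 to 291 (-0.65 ± 0.08), and Bdnf, a neurotrophin, at 19.6 to 37.0 against 31.7 to 47.9 (-0.49 ± 0.13). Prohormone convertase Pcsk1 (-0.88 ± 0.12) and the pentraxin Nptx2 (-0.79 ± 0.16) fell as well, while Scg2 (-0.22 ± 0.09) did not pass.

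Markers of neuron classes fell unevenly. Of 17 interneuron genes 9 were lower and 0 higher, and of 20 cortical layer genes 10 were lower and 0 higher in edgeR. At an unadjusted p under 0.05 no interneuron gene and 2 layer genes were higher, and DESeq2 called 0 and 1, as edgeR did without TBI replicate 2 or sham replicate 3. Without the 4 libraries high in Ttr, 5 interneuron genes were lower. Lamp5, a membrane protein of superficial neurons and of 1 class of interneurons, had the smallest p-value of all lower genes. It was at 55.8 to 72.2 CPM (median 64.6) against 107 to 155 (median 132), a change of -1.06 ± 0.08 (edgeR adjusted p = 1.1e-07). Pvalb, the calcium buffer of fast-spiking interneurons, was at 24.3 to 31.9 CPM against 35.7 to 66.8 (-0.66 ± 0.13), with sham replicate 2, the library that held cerebellar genes, the highest. The neuropeptides Sst (-0.27 ± 0.05), Npy (-0.39 ± 0.09) and Cck (-0.31 ± 0.05) fell by smaller amounts without overlap. Gad1, which makes GABA, fell (-0.26 ± 0.04) and Gad2, at 194 to 254 CPM against 197 to 220, did not pass. The deep-layer factors Fezf2 (-0.15 ± 0.11), Bcl11b (-0.08) and Tle4 (0.03) did not pass. Of 12 genes of hippocampal fields only Coch fell (-0.74 ± 0.14), or 8.33% beside 10% of all genes, and Prox1 (0.09), the dentate granule cell factor, did not pass. Without TBI replicate 2, 3 of these fell. At an unadjusted p under 0.05, and by the threshold without TBI replicate 3, 1 was higher.

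Synaptic release and excitability genes fell by small, regular amounts. Of 31 genes of vesicle release 21 were lower, at a median of -0.22, and 12 were free of overlap. Snap25, of the fusion complex, was at 2158 to 2546 CPM (median 2372) against 2897 to 3222 (median 3102), a change of -0.37 ± 0.04. Cplx1, complexin, was at 497 to 596 CPM against 687 to 769 (-0.42 ± 0.04), and Rph3a, rabphilin, at 254 to 337 against 405 to 477 (-0.65 ± 0.06). Potassium channels had 29 of 46 members lower, at a median of -0.25, and 19 without the 4 libraries high in Ttr. The largest declines were those of Kcnh5 (-0.95), Kcnh7 (-0.81) and Kcnh4 (-0.77), of the ether-a-go-go family, and of the beta subunit Kcnab3, at 24.8 to 43.0 CPM against 49.4 to 65.7 (-0.76 ± 0.10). Of 29 sodium, calcium and HCN channel genes 14 were lower. Scn4b, an accessory sodium channel subunit, was at 15.5 to 46.8 CPM against 39.3 to 81.0 (-1.29 ± 0.24), and TBI replicates 2 and 5, at 39.8 and 46.8, lay above the lowest sham mouse. Scn1a, the sodium channel prominent in fast-spiking interneurons, was at 108 to 154 CPM against 161 to 192 (-0.50 ± 0.07). Receptors changed less: 5 of 12 GABA-A subunits fell, led by Gabrd (-0.74 ± 0.09), the extrasynaptic delta subunit, with 2 higher at an unadjusted p under 0.05 and 1 by the threshold without TBI replicate 1 or 2 or sham replicate 1, and 3 of 15 glutamate receptor subunits, Grin1 (-0.25), Gria3 (-0.18) and Grik5 (-0.13). Grik5 kept its call only without TBI replicate 2 or sham replicate 1, 4 or 5 (-0.10 to -0.14 in the other 9 such fits, edgeR adjusted p of 0.0513 to 0.106).

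Cholesterol genes separated into synthesis, which fell, and efflux and storage, which rose. Cells make sterols under the factor SREBP2 and export excess through ABCA1 under the liver X receptors. Of 22 synthesis and uptake genes 17 were lower, at a median of -0.39, and 10 were free of overlap. Srebf2, which encodes SREBP2, was at 182 to 212 CPM (median 189) against 247 to 275 (median 260), a change of -0.44 ± 0.04 (edgeR adjusted p = 2.16e-06). Hmgcs1, early in the pathway, was at 172 to 233 CPM against 274 to 314 (-0.47 ± 0.06). Fdft1, squalene synthase, was at 58.1 to 62.2 CPM against 75.2 to 83.7 (-0.39 ± 0.04). In all 3 of these the groups did not overlap.

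Of 19 efflux and storage genes 15 rose and 1, the liver X receptor Nr1h2 (-0.17 ± 0.05), fell. Nr1h2 missed the threshold without TBI replicate 3 or 4 or sham replicate 5 or 7 (-0.155 to -0.145, edgeR adjusted p of 0.0523 to 0.0572). Abca1, present in 1 functional copy in every one of these mice, was at 75.9 to 134 CPM (median 103) in TBI mice and at 29.0 to 41.3 (median 34.9) in sham mice, with no overlap (1.55 ± 0.11, edgeR adjusted p = 7.13e-08). Counts do not tell which part of the transcript the reads cover, so transcripts of the disrupted allele could contribute. The related transporter Abcg1 rose by only 0.17 ± 0.05. Ch25h, which makes 25-hydroxycholesterol, was at 1.35 to 3.24 CPM against 0.319 to 0.683 (2.23 ± 0.22), Apoc1 changed by 2.16, the lipid droplet coat Plin2 by 1.39, and the lysosomal cholesterol carriers Npc2 (0.82 ± 0.07) and Npc1 (0.25 ± 0.04) rose together. Cyp46a1, the neuronal cholesterol hydroxylase, did not pass (-0.06 ± 0.05). Reads assigned to mouse Apoe, whose coding sequence is replaced by human APOE3, were at 22.2 to 26.6 CPM against 18.6 to 23.5 (0.25 ± 0.07), with overlap. They do not measure human APOE.

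Among metabolic and stress programs, 10 of 16 iron and heme genes rose, including heme oxygenase Hmox1, at 9.19 to 25.7 CPM against 4.05 to 6.60 (1.47 ± 0.22), the ferroxidase Cp, at 22.9 to 79.5 against 9.54 to 15.6 (2.01 ± 0.22), and ferritin light chain Ftl1 (0.84 ± 0.11). The transferrin receptor Tfrc, the lowest of the list, did not pass in edgeR (-0.30 ± 0.11), though 1 member was lower in DESeq2, at an unadjusted p under 0.05, and in edgeR without TBI replicate 2 or 4 or sham replicate 1. Of 18 oxidative stress genes 12 rose and Sod2 (-0.13 ± 0.03) fell, with the metallothioneins Mt2 (1.30 ± 0.15) and Mt1 (0.95 ± 0.12) among the largest changes. Of 17 genes of p53 and apoptosis 5 rose, or 3 without the 4 libraries high in Ttr, and Cdkn1a, the cell cycle inhibitor, fell from 12.0 to 24.6 CPM to 9.76 to 15.6 (-0.65 ± 0.14). Atf3, an injury-induced factor of axotomized neurons and of glia, rose (2.58 ± 0.25), while the growth cone genes Gap43 (0.09 ± 0.06) and Sox11 (0.28 ± 0.13) did not pass. In that list of 10 axon regeneration genes 3 rose and 1 fell (10%, as over all genes), with 2 lower without TBI replicate 1 or 5 or sham replicate 3 and 0 lower without the 4 libraries high in Ttr. Of 15 clock genes 6 fell, or 3 without the 4 libraries high in Ttr. Per1 (-0.42 ± 0.13) fell the most. The count was 2 without TBI replicate 2 or 6 and 3 without sham replicate 2, 4 or 5, and Per1 missed the threshold in each of these fits (-0.38 to -0.35, edgeR adjusted p of 0.0514 to 0.0644).

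Several programs showed little or no change. None of the 13 mitochondrially encoded messenger RNAs passed in edgeR, at an unadjusted p under 0.05 or in DESeq2, and their median was -0.04. Of 80 nuclear genes of oxidative phosphorylation 10 fell (12.5%, beside 10% of all genes), by at most 0.44 (Cox6a2), and Cox6b2 (0.70 ± 0.14) rose. The count that fell was 3 without TBI replicate 3 or sham replicate 7, 4 to 6 without TBI replicate 2, 4 or 5 or sham replicate 4 or 6, and 0 without the 4 libraries high in Ttr. None of 21 ER stress and chaperone genes passed in edgeR, although 3 were higher and 1 lower at an unadjusted p under 0.05 and 1 was lower in DESeq2. Without TBI replicate 4, 1 was called in each direction, without TBI replicate 2, 1 was higher, and without TBI replicate 1 or sham replicate 7, 1 was lower. Over all genes 13.4% were higher and 10% lower. Of 20 aminoacyl-tRNA synthetases 1 was higher and 1 lower (5% each), and of 9 heat shock genes 1 was higher (11.1%). Leaving out 1 library gave 0 to 1, 0 to 2 and 0 to 1 for these counts. Of 81 ribosomal protein genes 22 rose (27.2%, beside 13.4% of all genes) and 0 fell, at a small median of 0.15. The called genes ran from Rps14 (0.14) to Rps6 (0.35). Many of these genes have pseudogenes that share their reads. Without TBI replicate 5 the count was 13. Rps14 lost its call without TBI replicate 1, 4, 5 or 6 or sham replicate 1, 3 or 5 (0.12 to 0.14), and Rps6 without TBI replicate 3 or 5 or sham replicate 1 (0.32 to 0.34). Markers of neighboring regions that a dissection could include were checked as well. None of 6 choroid plexus genes passed by either tool or at an unadjusted p under 0.05, though 1 was lower without TBI replicate 3. Of 8 ependymal genes 1 was higher (12.5%, beside 13.4% of all genes), 2 without sham replicate 4 and 3 without TBI replicate 1 or sham replicate 7. None of 7 striatal genes passed by either tool, with 1 lower at an unadjusted p under 0.05. The thalamic list had 3 of 8 higher, and for 1 of them, Tcf7l2, TBI replicate 5 held 17.9 CPM against 4.59 to 6.54 in the other injured mice (0.93 ± 0.27). Without TBI replicate 5, 1 thalamic gene was lower.

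Another pair of motifs was searched in the same promoter windows. The PU.1 site GAGGAAGT, of a factor that directs myeloid cells, was found in 0 of 9 resting microglia, 1 of 16 disease-associated microglia (6.25%) and 0 of 3 NADPH oxidase promoters, beside 5.85% of higher genes and 3.36% of all. The cyclic AMP response element TGACGTCA was found in 2 of 14 immediate early promoters (14.3%) and 2 of 9 of the later activity genes (22.2%), beside 4.62% of lower genes and 3.45% of all. The ISRE core was found in 5 of 17 MHC class I promoters (29.4%).

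The remaining genes with the smallest p-values or the largest declines belong to no list above. Ly86, a secreted partner of a Toll-like receptor homolog, was at 25.4 to 39.1 CPM against 7.96 to 12.0 (1.80 ± 0.11). Atp2b2, a plasma membrane calcium pump, was at 420 to 521 CPM against 636 to 753 (-0.58 ± 0.06), and Cpne5, a calcium-dependent phospholipid-binding copine, at 44.3 to 51.8 against 65.2 to 77.6 (-0.57 ± 0.05). Mtus2, a microtubule-associated protein, was at 43.5 to 47.4 CPM against 56.7 to 64.0 (-0.43 ± 0.04). In all of these the groups were separate, as they were for Tbc1d30 (-0.53 ± 0.05), Arpp19 (-0.50 ± 0.05), Golga7b (-0.45 ± 0.04), Lmtk2 (-0.39 ± 0.04), Gm11549 (-0.88 ± 0.09) and the receptor accessory protein Ramp3 (-1.08 ± 0.11). Rspo1, a Wnt agonist, was at 1.52 to 3.79 CPM against 7.13 to 10.4 (-1.56 ± 0.20), with TBI females at 1.52 to 2.43 and males at 3.38 to 3.79. Its difference between the sexes did not pass (edgeR adjusted p = 0.201). Gm12992 was at 0.185 to 0.571 CPM against 0.854 to 1.74 (-1.69 ± 0.27), and the kinase Mylk3 at 0.723 to 2.35 against 2.16 to 3.79 (-1.34 ± 0.26). Cbln3 (-4.28 ± 1.47, edgeR adjusted p = 0.0453) had the largest decline, but without sham replicate 2 its log2 fold change was 0.03, and it also missed the threshold without any 1 of the 6 TBI mice (edgeR adjusted p of 0.0639 at the lowest).

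The response had the same sign in males and females for all 2007 higher genes and for 1507 of the 1508 lower ones, and these genes were chosen on both sexes together. Taken alone, the males (3 TBI, 4 sham) gave 1126 higher genes (7.43%) and 651 lower ones (4.3%), and the females (3 TBI, 3 sham) 1615 (10.7%) and 959 (6.33%). The male counts were 717 and 258 without TBI replicate 3, and 769 and 316 with the Rn45s share as a covariate. Among the genes called over both sexes, 75.9% of the higher and 67.2% of the lower had the larger change in females, with medians of 0.57 against 0.43 and of -0.25 against -0.22. The test of the difference between the sexes called 1 gene (0.0066%), with 1088 at an unadjusted p under 0.05 (7.18%), and DESeq2 called 19. The called gene was Chil1, a chitinase-like protein secreted by reactive astrocytes. It was at 70.3 to 92.5 CPM in the 3 TBI females, at 16.7 to 27.7 in the 3 TBI males and at 7.44 to 8.71 in the sham mice. Its log2 fold change was 3.39 in females and 1.50 in males, a difference of -1.89 ± 0.22 for males minus females (edgeR adjusted p = 0.0075). It missed the threshold without sham replicate 4 (-1.85, edgeR adjusted p = 0.0579) or sham replicate 6 (-1.88, edgeR adjusted p = 0.0549), while without sham replicate 1 the test called 2 genes. Of the next genes in rank, Fxyd5 (-0.81), Spp1 (-1.42), Aqp4 (-0.63) and Eno4 (1.42) did not pass. On plain library totals, Chil1 in TBI females and males of the other genotypes overlapped widely, at 24.2 to 119 against 19.9 to 152 CPM, in E3/Abca1+/+ and, at 38.4 to 273 against 25.1 to 212, in E4/Abca1+/-. In E4/Abca1+/+ mice, with human APOE4 and both copies of Abca1, females were at 24.2 to 229 CPM (median 149.5) and males at 13.8 to 25.8 (median 20.8), so the groups overlapped narrowly with females higher by a log2 difference of 2.25, beside 1.93 here on the same scale. The exact two-sided permutation test in E4/Abca1+/+ mice gave p = 0.114, or 0.343 adjusted over 15 tests. With 3 females and 4 males that test cannot give a p under 0.0571, so it could not pass and decides nothing. The mean level of the disease-associated microglia list likewise put the 3 TBI females (mean log2(CPM + 1) of 5.56 to 5.73) above the 3 males (4.95 to 5.27). In the other genotypes the sexes overlapped in this level. Females were at 5 to 6 against 4.77 to 5.77 in E3/Abca1+/+, 5.44 to 6.58 against 5.18 to 6.31 in E4/Abca1+/- and 4.82 to 6.40 against 4.66 to 5.08 in E4/Abca1+/+. The reactive astrocyte and complement lists were also separate by sex here, while the interferon-stimulated list overlapped (3.205 to 3.393 against 2.992 to 3.268). Rn45s was at 20751 CPM or more in the 3 TBI females but in only 1 of the 3 TBI males, and with the Rn45s share as a covariate the Chil1 difference was -1.81 ± 0.18 (edgeR adjusted p = 0.0025). For the list levels the part of Rn45s was not tested.

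**Figure D4:**
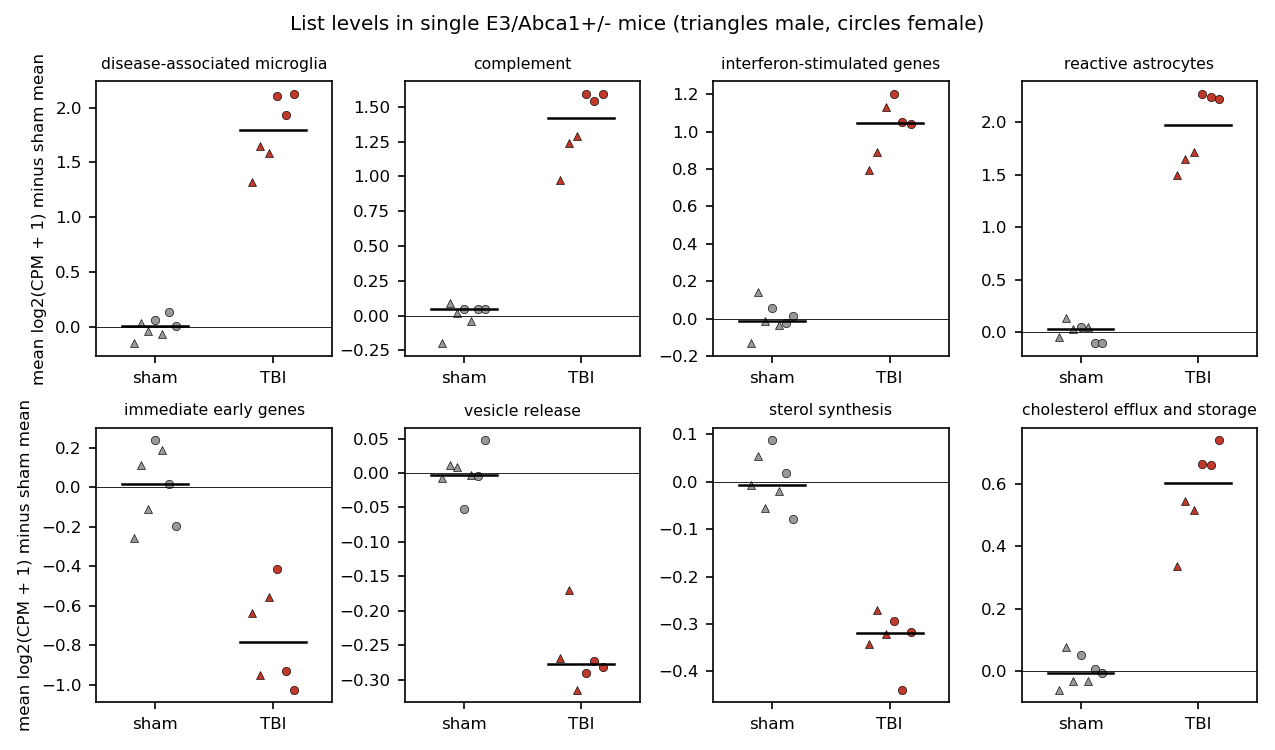
Mean log2(CPM + 1) of 8 gene lists in each E3/Abca1+/- mouse minus the mean of the 7 sham mice, for sham (grey) and TBI (red), males as triangles and females as circles, with a bar at the group median. For the disease-associated microglia and reactive astrocyte lists TBI females lie above TBI males, and both lie above every sham mouse.

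The genes called here were then read in mice that share no animal with them. In E3/Abca1+/+ mice (8 TBI, 8 sham), which carry both copies of Abca1, 1732 genes were higher (12.3% of 14093) and 1534 lower (10.9%). In E4/Abca1+/- mice (8 TBI, 7 sham), which carry human APOE4 and 1 copy of Abca1, 2671 were higher (17.7% of 15083) and 2469 lower (16.4%). Libraries held 4421308 to 17148953 counts in E3/Abca1+/+ and 5471936 to 37877346 in E4/Abca1+/- mice, beside 12165681 to 28184924 here. The part of depth and of the number of mice in these counts and in the shares below was not tested. Of the 1858 higher genes with a value in E3/Abca1+/+ mice, 1841 (99.1%) had the same sign there and 1351 (72.7%) were called higher, which is 78.05% of the genes called higher there that were also tested here. The corresponding shares in E4/Abca1+/- mice were 99.2% and 84.1% of 2004 genes, or 64.6% of the 2608 called there and tested here. Of the lower genes, 68.9% were called lower in E3/Abca1+/+ and 72.3% in E4/Abca1+/-. These made up 66.9% of the 1534 genes called lower in E3/Abca1+/+ and tested here, and 44.2% of the 2466 in E4/Abca1+/-. Over the higher genes the median log2 fold change was 0.50 here, 0.46 in E3/Abca1+/+ and 0.61 in E4/Abca1+/-.

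Tests of the difference called 0 genes for Abca1 copies in APOE3 mice (0.0%), with 320 of 15098 at an unadjusted p under 0.05 (2.12%). They called 0 for the isoform in Abca1+/- mice (0.0%), with 961 of 15162 at an unadjusted p under 0.05 (6.34%), in edgeR. DESeq2 called 0 and 3 genes in these tests. Among the genes with the smallest p-values for Abca1 copies, here minus E3/Abca1+/+, were Pramef8 (0.48), Ovol1 (-1.57), Nln (-0.28) and Kcnn2 (0.29). Among those for the isoform, here minus E4/Abca1+/-, were Stra13 (-0.60), Serpina3n (1.70), Spsb2 (-1.11) and Gm10125 (1.30). Serpina3n rose by 3.09 here and by 1.37 in E4/Abca1+/- mice, a difference of 1.70 ± 0.35 that did not pass (edgeR adjusted p = 0.265). Abca1 itself rose by 1.55 here, by 1.81 in E3/Abca1+/+ and by 1.92 in E4/Abca1+/- mice, and the difference from E3/Abca1+/+ was -0.27 ± 0.20. A p that misses the threshold does not show that the genotypes respond alike.

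**Figure D5:**
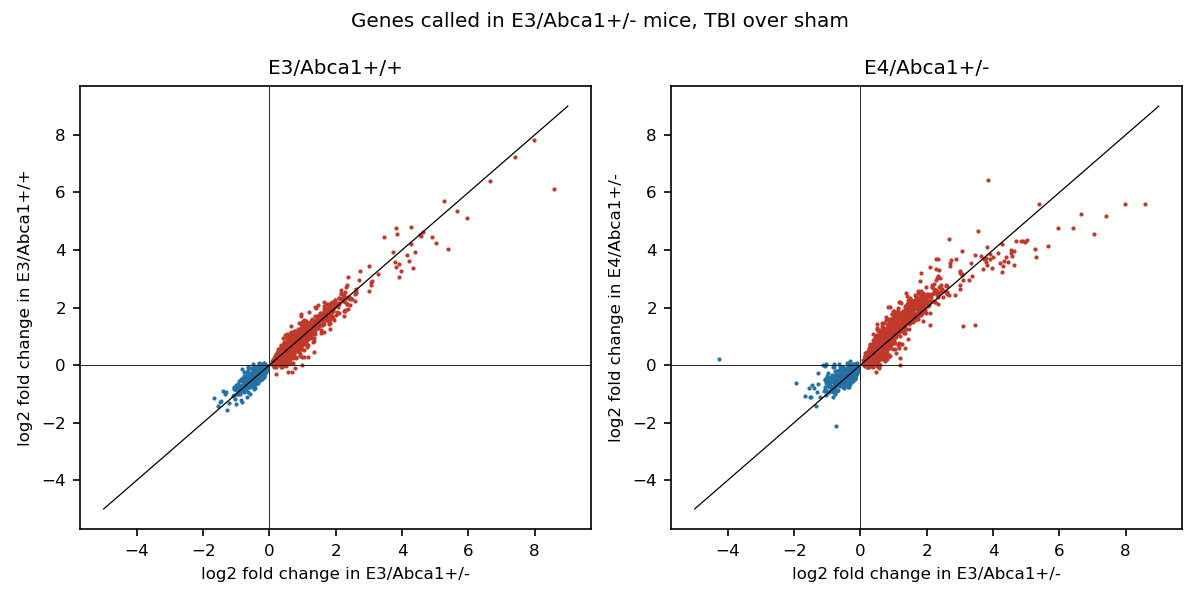
Log2 fold change of TBI over sham in E3/Abca1+/- mice (horizontal axis) against that in E3/Abca1+/+ mice (left) and E4/Abca1+/- mice (right) for the genes called in E3/Abca1+/- mice, higher in red and lower in blue, with the line of equal change. Most points lie in the quadrants of equal sign, as for 1841 of 1858 higher genes on the left.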

How the data were processed

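Cortex and hippocampus of 58 mice were sequenced as bulk messenger RNA, and the 13 E3/Abca1+/- libraries are analysed here, with E3/Abca1+/+ and E4/Abca1+/- mice as comparison. The deposited values are raw counts of reads per gene. Per the labels the authors aligned with Subread (1.5.0) to mm10, counted with featureCounts and used edgeR; whether counting used strand is not given in the sources used here, so overlapping and antisense genes are uncertain.

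Blank lines (2) were removed, 23 gene symbols that a spreadsheet had turned into dates were restored, and 15171 genes remained. No 2 libraries of a group among 183 pairs held identical values. Each library is a different mouse. Genes with enough counts by filterByExpr (15026) were tested with edgeR 4.0.16 (limma 3.58.1, R 4.3.3): TMM factors (0.961 to 1.0243), the quasi-likelihood test of TBI against sham and Benjamini-Hochberg adjustment. Sex was tested in a fit of 4 cells of sex and treatment, and genotype in fits of 4 groups. Dispersion between mice corresponded to a coefficient of variation of 0.115. CPM in single mice used TMM-scaled totals. With totals of 12165681 to 28184924 counts, 1 count is worth under 0.1 CPM, and counting intervals are exact binomial at 95% and cover counting error only. A list is given by its counts and median beside all genes, with no test of its own. A gene near 0 in sham mice enters the test only through the TBI mice, while genes low in both groups drop out. Shares and medians of lists with such genes lean upward.

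Named genes are the 15 smallest p-values and the 10 largest changes (mean of at least 1 CPM in either group) in each direction, the 5 smallest p-values of each interaction test, Abca1, Apoe, Actb and Gapdh, and members of gene lists; some of these are not reported here. Members and lists were chosen with earlier results of these data known. Alternatives were DESeq2 1.42.0 (size factors or its Wald test), a robust prior, a test against a 1.2-fold change, other filters, sex as a covariate, a fit of 58 mice, thinning to the lowest total and leaving out each mouse. Chosen after seeing the data were the Rn45s share as a covariate, Rn45s left out, the 4 libraries over 100 CPM of Ttr left out, and the sex tests without each mouse or with the Rn45s share.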

Additional observations from a re-analysis of the deposited data

Results flagged for a closer look

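Of 540 groups of mice examined for a single value far from the others (each gene named in the report and each list level, in the 6 TBI and in the 7 sham mice), 36 held one by Dixon's criterion. Normally distributed values would give about 1 in 20, or 27. CPM were used without a log scale, and lists and genes overlap, so 27 is no firm expectation. Values are CPM, with the range of the group's other mice, and list levels are mean log2(CPM + 1).

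Sham replicate 6 held 7 of these, with 5 microglial, macrophage or plasma cell genes at the top of the sham range. Clec7a was at 1.01 (others 0.149 to 0.461), Itgax at 1.35 (0.355 to 0.610), Cst7 at 0.729 (0.106 to 0.304), Jchain at 0.729 (0.247 to 0.425) and Cd5l at 0.0561, its 1 count, with 0 in the others. Gm12992 was also high at 1.74 (0.854 to 1.13), and Pcsk1 was low at 34.1 (51.0 to 59.7). The sham values of the first 5 lay below every TBI mouse.

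Sham replicate 2 was high in Cbln3 at 82.6 (0.449 to 0.928), Pvalb at 66.8 (35.7 to 46.8), Tlr4 at 2.58 (1.85 to 2.05), the thalamus list at 4.17 (3.61 to 3.83), the endothelium and barrier list at 4.63 (4.34 to 4.46) and the mean of all genes tested at 4.47 (4.44 to 4.45). Sham replicate 1 was low in Ighm at 12.1 (18.1 to 21.7), Kcnab3 at 49.4 (59.0 to 65.7), Kcnh5 at 11.7 (17.7 to 22.1), Scn1a at 161 (183 to 192) and the lymphocyte list at 1.51 (1.68 to 1.77). Sham replicate 7 was high in Acan at 6.41 (4.75 to 5.46) and low in Mtus2 at 56.7 (61.0 to 64.0).

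Among injured mice, TBI replicate 5 was high in Gad2 at 254 (194 to 206), Lox at 4.89 (0.600 to 2.02), Tcf7l2 at 17.9 (4.59 to 6.54) and the thalamus list at 4.61 (3.83 to 3.99). TBI replicate 6 was high in Hmox1 at 25.7 (9.19 to 13.7), S100a9 at 9.78 (0.450 to 3.72) and Nln at 40.7 (33.1 to 35.6). TBI replicate 4 was high in Rsad2 at 8.98 (2.60 to 3.51) and Mylk3 at 2.35 (0.723 to 1.28). TBI replicate 1 was high in Golga7b at 109 (92.4 to 96.0) and low in the TGF-beta list at 4.17 (4.48 to 4.57) and the cell cycle list at 2.29 (2.41 to 2.47). TBI replicate 2 was high in Grin1 at 272 (239 to 247) and the vesicle release list at 8.37 (8.22 to 8.27), and low in the nuclear oxidative phosphorylation list at 5.70 (5.76 to 5.79). The choroid plexus list of TBI replicate 3 was at 5.62 (1.49 to 2.37).

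The effect of injury on Chil1 differed between the sexes by the test of the difference, at -1.89 on the log2 scale for males minus females (edgeR adjusted p = 0.0075), with the 3 TBI females above the 3 TBI males.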

How the results depend on the processing

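Of 171 genes named in the report that passed the threshold, 132 passed it under all 25 other settings. The counts of 2007 higher and 1508 lower genes stayed within 1.5 times under the other settings run, except that a test against a 1.2-fold change called 866 and 174, and 872 were lower without the 4 libraries high in Ttr. Leaving out 1 mouse gave 1776 to 2174 higher and 1199 to 1544 lower. The 2 sexes' counts did too, except in males, which gave 975 to 2059 changed genes without 1 mouse and 1085 with the Rn45s share as a covariate. The sex difference called 0 to 2 genes without 1 mouse and 19 in DESeq2. The isoform difference called 3 in DESeq2. Depth limited low genes: thinning kept 200 of the 211 named genes. The cause of these moves was not tested.

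Among called genes only Cbln3 changed sign (0.018 in DESeq2 and -4.51 to 0.026 without 1 mouse). Below the threshold, 12 genes did. Without 1 mouse the log2 fold change ran from -0.42 to 0.093 for Cd4, -0.068 to 0.017 for Gad2, -0.019 to 0.052 for Kcnn2, -0.18 to 0.26 for Lyve1, -0.00018 to 0.061 for Nln, -0.0038 to 0.058 for Pcna, -0.0099 to 0.17 for Prox1, -0.18 to 0.10 for Sphk1, -0.069 to 0.0034 for Stra13 and -0.0021 to 0.057 for Tle4. Without the 4 libraries high in Ttr it was 0.29 for Cd4, -0.12 for Cfp, -0.0029 for Ciita, 0.018 for Gad2, -0.11 for Lyve1, 0.065 for Sphk1 and -0.0115 for Tle4. After thinning it was 0.0086 for Gad2, -0.0026 for Kcnn2 and 0.055 for Stra13. With the Rn45s share as a covariate it was -0.068 for Lyve1.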
